A study of Mus musculus with 6 samples.

Results

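Complement genes were read in the RNA-seq of reprogramming MEF with and without Rnf20. The set was defined by gene symbol, with earlier results of these data known, and it named 9 genes: C1qa, C1qb, C1qc, C1ra, C1s1, C3, C4b, Cfb and Serping1. Of these, 8 were found among the 16982 genes of the count table, and all 8 were among the 13386 genes that passed the filter on low counts. Cfb was not analysed here.

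The study asked how loss of RNF20, the E3 ligase that monoubiquitinates histone H2B, affects the first days of iPSC induction, and compared 3 WT with 3 Rnf20 knockout (KO) libraries of cells collected on day 3 after OSKM infection. WT cells were Rnf20+/+ and KO cells were Rnf20-/-, and both carry the C57BL/6 strain background and are listed as untreated. Per the methods, MEF were isolated from embryos whose Rnf20 alleles were floxed and which carried a ubiquitously expressed, tamoxifen-inducible Cre, deletion was induced in culture with 4-OH tamoxifen, and OCT4, SOX2, KLF4 and C-MYC were delivered by retroviral vectors. Whether WT cells carried the Cre or received the drug, and how many embryos gave the cells, are not given in the sources used here. Whether the 3 libraries of a genotype came from separate cultures is not given either. P-values thus measure only the spread between these libraries, which among WT libraries may be technical. The methods also place infected MEF on mitomycin-C-treated feeder MEF, and whether feeder RNA entered the libraries is likewise not given.

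Complement is a cascade of plasma proteins that tags microbes and dying cells for removal. In the classical pathway C1q, built from the C1qa, C1qb and C1qc chains, binds a target and activates the proteases C1r and C1s, which cleave C4 and C2 so that C3 can be cleaved in turn. Factor B drives the alternative pathway, and SERPING1, the C1 inhibitor, blocks C1r and C1s. Most plasma complement is made in the liver, but fibroblasts make C1r, C1s, C3 and C1 inhibitor, whereas C1q is made chiefly by macrophages and related myeloid cells.

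The libraries held 20545442 to 21746898 counts, so that 3 counts corresponded to 0.142 to 0.143 CPM (counts scaled to the TMM-normalized library size). Rnf20, the targeted gene, stood at 106 to 107 CPM in WT and 16.4 to 18.7 CPM in KO libraries. The third KO library (KO3) stood apart: a chi-square per gene of 92.4 and 101 separated its counts from KO1 and KO2, against 8.57 between KO1 and KO2 and 6.04 to 8.92 between WT libraries. KO1 and KO3 held 0 counts of the Y-linked gene Ddx3y, against 1990 to 2686 counts in the WT libraries and KO2. The KO libraries were thus not all taken from the same cells, and Y-linked RNA was unevenly split between the genotypes. Of 8 fibroblast markers, Pdgfra (log2 fold change -1.22) and Thy1 (-1.11) were lower in KO past the test, beside 16.6% of all genes. The other 6 did not pass, among them Vim, which was higher in every KO library than in any WT library, and Dcn, highest in KO3. The summed level of the 8 was 26715 to 29118 CPM in WT, 26358 and 32776 CPM in KO1 and KO2 and 17563 CPM in KO3. Col1a1, Col1a2 and Col3a1 made up most of that sum. Results are therefore given with and without KO3.

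Among the 8 complement genes measured, C4b fell in KO cells and none rose at an adjusted p under 0.05 (quasi-likelihood test of edgeR, Benjamini-Hochberg adjusted over all genes tested). Over all genes tested, 16.6% fell and 16.4% rose at that threshold. At an unadjusted p under 0.05 the count of members was 2, C4b lower and C3 higher; edgeR's exact test also passed C3 as higher, and DESeq2 passed no member as higher and gave C3 no adjusted p. With the thresholds of the study (adjusted p under 0.01, fold over 2 and mean FPKM over 1 in at least 1 genotype) no member was called, against 3.59% of all genes. The median log2 fold change of the 8 members was -0.24, and that of all genes tested was -0.00032. Without KO3, C1ra, C1s1, Serping1 and C4b fell and C3 rose, the C1q chains did not pass the test, and the median was -0.51 against -0.0068 for all genes. In that comparison of KO1 and KO2 with WT, 24.2% of 13529 genes fell and 23.9% rose.

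**Figure D1:**
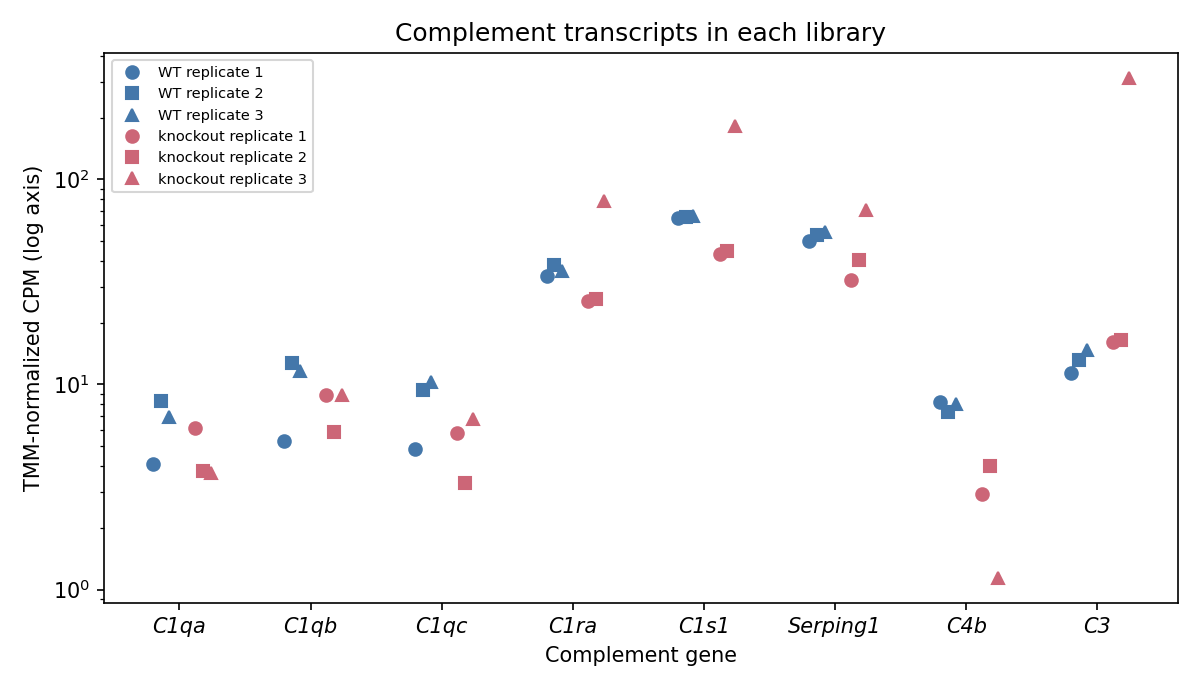
Level of each of the 8 complement genes in each of the 6 libraries (CPM on a log axis, 1 point per library, WT in blue and KO in red, symbols by replicate number). C1ra, C1s1 and Serping1 lie below every WT library in KO1 and KO2 and above every WT library in KO3, C3 is at 312 CPM in KO3, and C4b is lower in all 3 KO libraries than in WT.

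**Figure D2:**
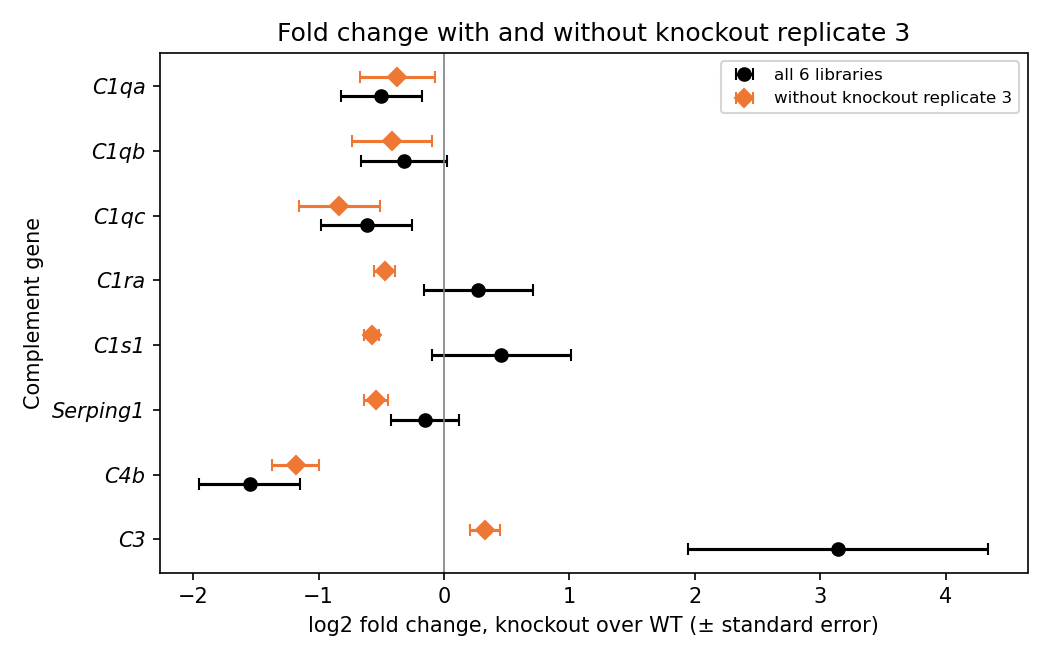
Log2 fold change of KO over WT with its standard error for each member, with all 6 libraries and without KO3. C3 moves from 3.14 to 0.33, C1ra and C1s1 change sign, and C4b stays below 0 in both fits.

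Upstream sequence was examined for the members whose start site was in the RefSeq promoter table (GRCm38.p6), which held 5 of the 8. The 250 bases upstream of the start are shown for C3 and C1s1, the members whose level in KO3 stood highest above KO1 and KO2, and for C1qb, a C1q chain that changed little between them. They run 5′ to 3′ on the coding strand, with motif matches in capitals.
C3, chr17:57228137-57228386 (minus): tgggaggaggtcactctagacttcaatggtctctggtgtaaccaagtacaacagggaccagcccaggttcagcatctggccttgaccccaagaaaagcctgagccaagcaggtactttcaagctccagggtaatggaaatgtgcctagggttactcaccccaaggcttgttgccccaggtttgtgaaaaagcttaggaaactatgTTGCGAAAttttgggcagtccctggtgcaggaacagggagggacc
C1s1, chr6:124542360-124542609 (minus): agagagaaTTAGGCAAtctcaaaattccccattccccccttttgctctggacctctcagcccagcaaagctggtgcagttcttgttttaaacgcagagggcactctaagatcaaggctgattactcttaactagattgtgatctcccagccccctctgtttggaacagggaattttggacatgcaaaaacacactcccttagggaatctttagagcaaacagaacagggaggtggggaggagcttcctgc
C1qb, chr4:136886201-136886450 (minus): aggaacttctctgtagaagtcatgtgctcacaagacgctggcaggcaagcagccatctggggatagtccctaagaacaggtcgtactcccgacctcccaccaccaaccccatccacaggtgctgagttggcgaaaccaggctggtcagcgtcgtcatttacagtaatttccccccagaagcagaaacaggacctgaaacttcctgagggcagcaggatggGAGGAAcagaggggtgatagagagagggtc
The capitals in C3 and C1s1 are the C/EBP letters TTGCNNAA or their reverse complement (N is any base), at positions -45 to -38 from the start in C3 and -242 to -235 in C1s1; the second C1s1 start in the table has no match in its window. The C1ra window also holds a match, after its start, and 10.8% of 32851 promoter windows of the same 300 bases hold one on either strand. In C1qb the capitals are the PU.1 letters GAGGAA, at positions -30 to -25; matches on the other strand lie in the C1qc and C1ra windows, and 28.3% of windows hold the letters. The NF-kB letters GGANTTTCC were in no window of the 5 members, against 1.25% of all windows. Of the other letters searched on both strands, GAS (TTCNNNGAA, 8.3% of windows) was in C1ra, the TATA letters TATAAA (13.6%) were in C3 after its start, and ISRE (GAAANNGAA, 8.56%) was in no member's window. No match says only that the letters are not in that window. A match is a description of letters and not of binding, and the motifs were chosen with the expression values known.

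The recognition subunit of C1 is encoded by 3 adjacent genes on the minus strand of chromosome 4 (GRCm38), C1qb at chr4:136880129-136886187, C1qc at chr4:136889804-136893065 and C1qa at chr4:136895917-136898803, which together span 18.7 kb. C1qa stood at 4.09, 8.26 and 6.93 CPM in WT1 to WT3 and at 6.11, 3.80 and 3.71 CPM in KO1 to KO3. C1qb stood at 5.28, 12.7 and 11.6 CPM in WT and at 8.88, 5.89 and 8.91 CPM in KO. C1qc stood at 4.85, 9.35 and 10.3 CPM in WT and at 5.82, 3.32 and 6.81 CPM in KO. WT1 was the lowest WT library for every chain, KO2 was below KO1 for every chain, and the genotypes overlapped in all 3. None of the chains passed the test: the log2 fold change was -0.50 ± 0.32 (SE) for C1qa (adjusted p = 0.266), -0.32 ± 0.34 for C1qb (adjusted p = 0.495) and -0.62 ± 0.36 for C1qc (adjusted p = 0.226). Without KO3 they were -0.37, -0.42 and -0.83, of which C1qc came nearest the threshold (adjusted p = 0.0566). The libraries of a genotype differed among themselves: the 3 chains together had 299, 638 and 608 counts in WT1 to WT3 and 436, 274 and 408 counts in KO1 to KO3. In bulk RNA fewer cells of a type and less RNA per cell cannot be told apart.

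C1q chains are usually read with macrophage genes, so 12 macrophage markers were set beside them. Aif1 did not pass the filter, and of the 11 tested none rose and none fell by edgeR's quasi-likelihood test, beside 16.4% and 16.6% of all genes. At an unadjusted p under 0.05 the counts were 0 higher and 1 lower (Laptm5), and DESeq2 and edgeR's exact test passed none. The receptor gene Csf1r stood at 5.47, 7.83 and 7.31 CPM in WT and 7.06, 5.94 and 12.2 CPM in KO, and the lysosomal gene Cd68 at 6.70, 10.5 and 7.97 CPM in WT and 7.02, 5.89 and 8.57 CPM in KO. The macrophage surface gene Adgre1 stood at 1.76, 4.27 and 3.13 CPM in WT and 4.06, 2.56 and 31.9 CPM in KO. The leukocyte gene Ptprc was at 1.14 to 3.09 CPM in WT and 1.28 to 4.91 CPM in KO, and the lysozyme gene Lyz2 was at 25.5 to 58.0 CPM in WT and at 49.1, 26.4 and 159 CPM in KO. WT1 was again the lowest WT library for all 5. The summed level of the list was 77.7, 144 and 122 CPM in WT and 113, 79.1 and 284 CPM in KO, and the summed C1q level divided by it was 0.183, 0.211 and 0.236 in WT, 0.184 and 0.165 in KO1 and KO2, and 0.0684 in KO3. In KO3 the marker sum was thus the highest of the 6 libraries while C1q lay within the range of the others. Lyz2 gave 159 of the 284 CPM. Without Lyz2 the marker sum was 126 CPM in KO3, against 52.2 to 85.8 CPM in the other libraries. In KO3, 6 of the 11 markers were over 2-fold above the mean of KO1 and KO2, beside 4.74% of all genes. Mrc1 was below 0.5 of that mean, beside 7.62% of all genes. Of 5 neutrophil and 3 lymphocyte markers, 2 each were in the count table, and these summed to at most 0.667 and 0.381 CPM. Of 4 hepatocyte genes, 2 were in the count table, Alb and Apoa1, both at 0 counts in every WT library. Endothelial markers summed to 48.3 to 59.0 CPM in WT and 66.9, 53.6 and 32.3 CPM in KO. Epithelial markers summed to 41.2 to 42.9 CPM in WT and 33.3, 23.3 and 3.14 CPM in KO. The part of macrophage RNA in the C1q values was not tested.

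**Figure D3:**
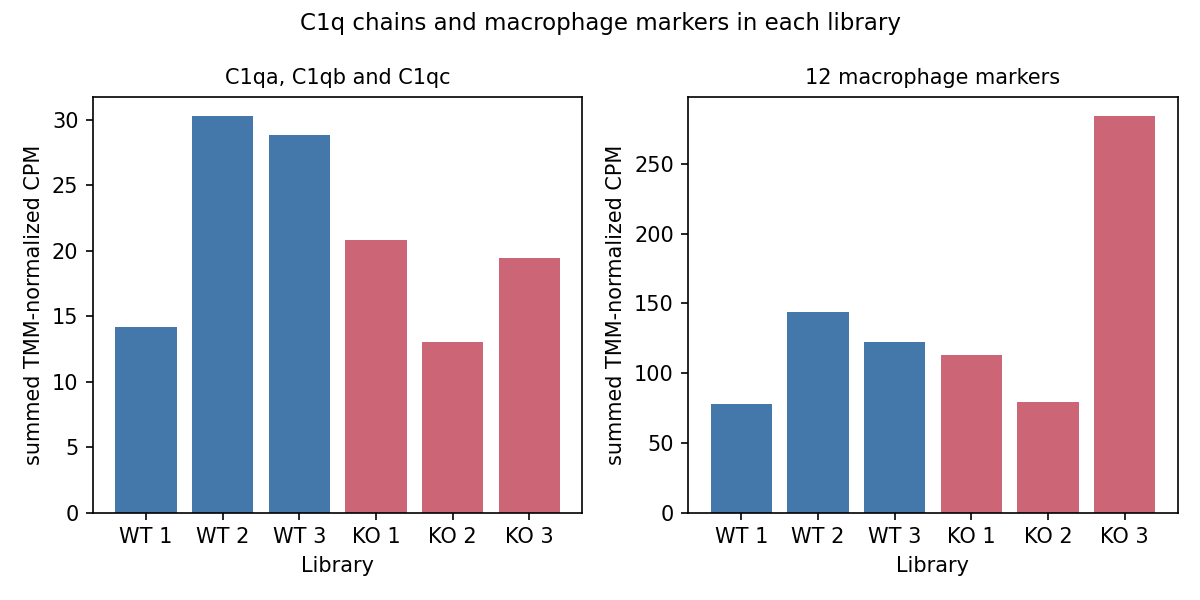
Bars give the summed CPM of the 3 C1q chains (left) and of the 12 macrophage markers (right) in each of the 6 libraries, from 0. WT1 and KO2 are lowest in both sums, and KO3 has a marker sum of 284 CPM with a C1q sum of 19.4 CPM.

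C1ra and C1s1, which encode the proteases that C1q activates, lie 6.9 kb apart on chromosome 6, C1ra at chr6:124512405-124523443 on the plus strand and C1s1 at chr6:124530345-124542359 on the minus strand. C1ra stood at 33.7, 38.1 and 35.9 CPM in WT and at 25.4, 26.2 and 78.4 CPM in KO. C1s1 stood at 64.8, 65.5 and 66.4 CPM in WT and at 43.2, 44.5 and 182 CPM in KO. Both genes were lower in KO1 and KO2 than in any WT library and higher in KO3 than in any WT library. The means of the genotypes overlap within this spread, with C1ra at 35.9 ± 2.20 CPM in WT and 43.3 ± 30.4 CPM in KO (SD, n = 3), and C1s1 at 65.6 ± 0.801 and 90.0 ± 80.0 CPM. With all libraries the log2 fold changes were 0.27 ± 0.43 (SE) for C1ra (adjusted p = 0.650) and 0.46 ± 0.55 for C1s1 (adjusted p = 0.546). Without KO3 C1ra fell by 0.47 ± 0.081 on the log2 scale (adjusted p = 0.000937) and C1s1 by 0.58 ± 0.061 (adjusted p = 4.5e-05). Per kilobase of gene length, C1s1 was 1.92, 1.71 and 1.85 times C1ra in WT, 1.70 in both KO1 and KO2, and 2.32 in KO3. The paralogs C1rb and C1s2 were too low to test (at most 0.333 and 1.86 CPM), and reads shared with them, or for C1s1 with the opposite-strand gene Gm16567, cannot be told apart here.

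C3 encodes the central component on which the pathways converge, at chr17:57203970-57228136 on the minus strand. It stood at 11.3, 13.1 and 14.7 CPM in WT and at 16.1, 16.5 and 312 CPM in KO (238, 276 and 310 counts against 338, 348 and 6559). Every KO library was above every WT library, as was so for 26.6% of all genes, but KO3 was far above the other two. KO3 was at 2395% of the WT mean, and at 19.1 times the mean of KO1 and KO2, the 8th largest such ratio among 12546 genes with a mean over 1 CPM in KO1 and KO2. The log2 fold change with all libraries was 3.14 ± 1.20 (SE), which did not pass the test (adjusted p = 0.0855). Without KO3 C3 rose by 0.33 ± 0.12 on the log2 scale (adjusted p = 0.0467). Without KO1 C3 passed at 3.66 (adjusted p = 0.0472) and without KO2 it did not (adjusted p = 0.0523).

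C4b, which encodes the C4 protein that C1s cleaves, was the member that fell with all libraries. It lies at chr17:34728380-34743882 on the minus strand and stood at 8.18, 7.31 and 8.07 CPM in WT and at 2.91, 3.99 and 1.14 CPM in KO (172, 154 and 170 counts against 61, 84 and 24). Every KO library was below every WT library, as was so for 28.2% of all genes, and KO3 was the lowest. On average KO libraries held 34.1% of the WT level, a log2 fold change of -1.55 ± 0.40 (SE, adjusted p = 0.0285). Without KO3 it was -1.18 ± 0.19 (adjusted p = 0.000625). The call was lost when WT1, WT2, WT3 or KO1 was left out (adjusted p of 0.0879, 0.0829, 0.0956 and 0.0573), with log2 fold changes of -1.61 to -1.52. A term for Y-linked transcripts left the log2 fold change of C4b at -0.98. That fit compares KO2 alone with WT, so no call is read from it. C4b has a near-identical paralog, C4a, so its count may depend on how shared reads were assigned.

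Serping1, which encodes the C1 inhibitor, lies at chr2:84765387-84775444 on the minus strand. It stood at 49.9, 53.8 and 55.4 CPM in WT and at 32.3, 40.4 and 70.6 CPM in KO. As with the proteases it inhibits, KO1 and KO2 lay below all WT libraries and KO3 above them. The log2 fold change was -0.15 ± 0.27 (SE, adjusted p = 0.691) with all libraries, and without KO3 Serping1 fell by 0.54 ± 0.096 (adjusted p = 0.00109). Relative to C1s1 per kilobase, Serping1 was 1.26, 1.34 and 1.36 in WT, 1.22 and 1.48 in KO1 and KO2, and 0.633 in KO3.

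KO3 against its 2 companion libraries divided the members. C3, C1s1 and C1ra were 19.1, 4.15 and 3.04 times the mean of KO1 and KO2, Serping1 was 1.94 times, C1qc, C1qb and C1qa were 1.49, 1.21 and 0.750 times, and C4b was 0.331 times. Over all genes tested, 4.74% were more than 2-fold above that mean in KO3 and 7.62% were below 0.5 of it. Among 8 members, 3 were above 2-fold and 1 was below 0.5. This is 1 library, so the ratio has no replicate check.

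**Figure D4:**
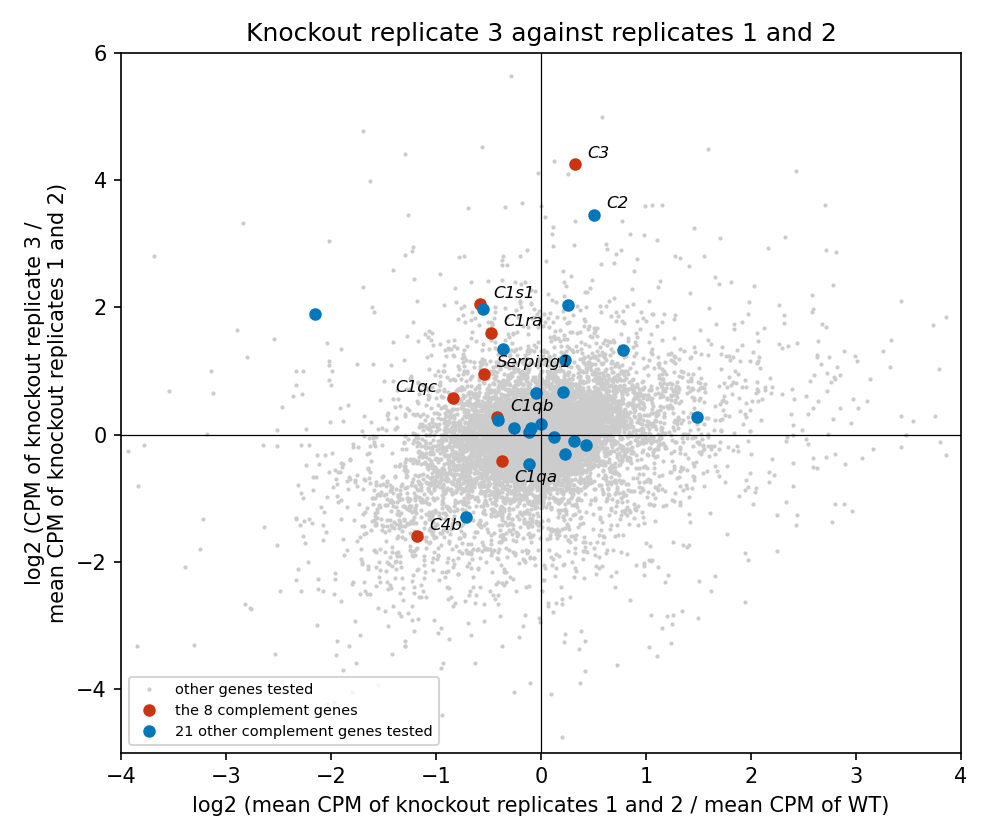
Log2 ratio of KO3 to the mean of KO1 and KO2 (vertical) against log2 ratio of the mean of KO1 and KO2 to the WT mean (horizontal), with members in red, the 21 wider-list genes in blue and other genes in grey (13302 genes lie inside the axes, and 84 outside them or at a level of 0 are not drawn). On the vertical axis C3, C1s1, C1ra and Serping1 lie highest, and C1qc and C1qb lie above 0 but below these. C1qa and C4b lie below 0, with C4b the lowest member and the furthest left.

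Levels of different genes were compared per length, as CPM divided by the gene length in kilobases (RPKM). In WT, Serping1 was the highest member at 29.0 ± 1.54 RPKM (SD, n = 3), followed by C1s1 at 21.9 ± 0.268 and C1ra at 12.03 ± 0.739. C1qb (9.06 ± 3.68), C1qc (6.79 ± 2.42) and C1qa (6.18 ± 2.05) followed, C1qb overlapping C1ra within its spread and the chains overlapping each other. C3 (2.54 ± 0.331) and C4b (1.46 ± 0.0878) were the lowest. In KO1 and KO2 the order of the 3 highest was the same (means of 19.9, 14.7 and 8.65 RPKM), whereas in KO3 C1s1 (61.0 RPKM) and C3 (60.8 RPKM) were above Serping1 (38.6 RPKM) and C1ra (26.3 RPKM).

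**Figure D5:**
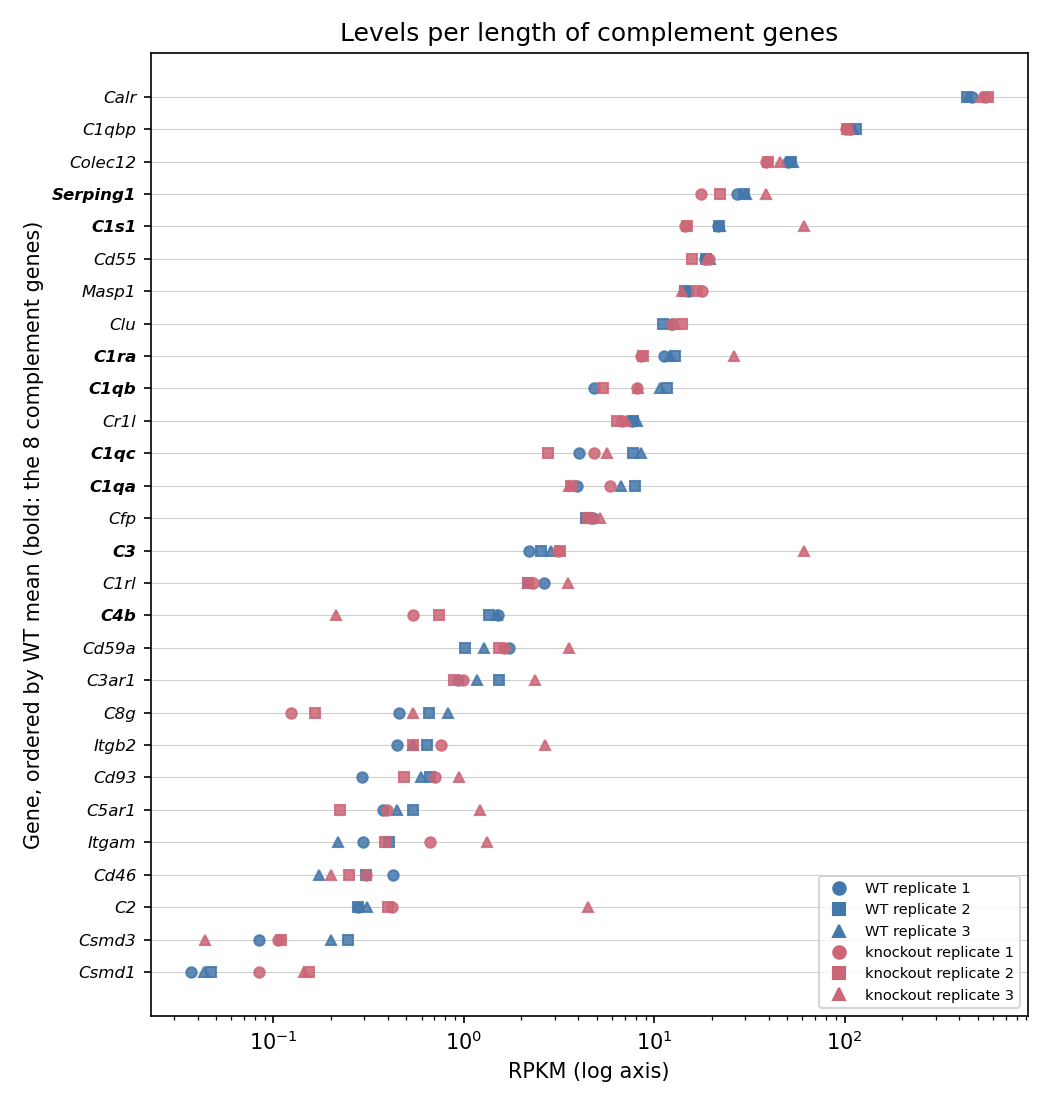
RPKM on a log axis of the 8 members (bold) and 20 other complement genes tested, ordered by WT mean, with 1 point per library, WT in blue and KO in red. C3 moves from the second lowest member in WT to 60.8 RPKM in KO3, level with C1s1, and C4b drops to 0.213 RPKM.

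Transcription factors of inflammatory and macrophage gene expression formed a list of 11, of which 10 were tested; 1 of the 10 rose and none fell, beside 16.4% and 16.6% of all genes, so the count is no more than the background. Cebpd, which encodes a C/EBP factor induced in the acute-phase response, stood at 4.47, 3.66 and 5.36 CPM in WT and at 19.0, 14.8 and 57.9 CPM in KO, with every KO library above every WT library and KO3 the highest. Its log2 fold change by edgeR was 2.76 ± 0.55 (SE, adjusted p = 0.013), and 1.91 without KO3 (adjusted p = 1.87e-05). Leaving out a WT library left it at 2.63 to 2.91 with adjusted p of 0.0548 to 0.0624. A term for Y-linked transcripts left it at 1.72. With that term the fold change rests on KO2 alone against WT, since KO1 and KO3 held 0 counts of Ddx3y. The Cebpd ratio of KO3 to the mean of KO1 and KO2 was 3.42. Cebpb, which was chosen after its values were seen, stood at 52.9, 52.0 and 46.0 CPM in WT and at 65.2, 61.8 and 166 CPM in KO, with a log2 fold change of 0.96 ± 0.38 (SE) that did not pass the test (adjusted p = 0.0951). The letters searched for C/EBP are those in capitals in the C3 and C1s1 sequences above, and whether these factors act there was not tested. The median of the 10 was 0.36.

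A wider list of 51 complement genes, receptors and regulators had 37 in the count table and 21 tested. Of these 3 rose, 1 fell and 17 did not pass the test, with a median log2 fold change of 0.21 (0.0026 without KO3, when 4 rose and 3 fell). Beside these counts, 16.4% of all genes tested rose and 16.6% fell (23.9% and 24.2% without KO3), so the counts higher are near the background. The membrane regulator gene Csmd1 stood at 0.523 to 0.665 CPM in WT and 1.19 to 2.18 CPM in KO (log2 fold change 1.58, adjusted p = 0.0166). Calr, which encodes an endoplasmic reticulum chaperone that also binds C1q, stood at 952 to 1012 CPM in WT and 1133 to 1229 CPM in KO (0.28, adjusted p = 0.0317). Colec12, which encodes a membrane collectin, fell from 167 to 177 CPM in WT to 129 to 153 CPM in KO (-0.33, adjusted p = 0.0294). Calr (495.8 RPKM on average), C1qbp (106.6 RPKM) and Colec12 (46.7 RPKM) were the highest of the list per length, and C1qbp, which encodes a mitochondrial protein that binds C1q, stood at 125, 134 and 130 CPM in WT and 119, 120 and 123 CPM in KO (adjusted p = 0.249). The calls of Calr and Colec12 were lost when any 1 library other than KO3 was left out, and that of Csmd1 when any 1 WT library was left out. Calr also did not pass with library size only (adjusted p = 0.0646 from edgeR), with edgeR's exact test (adjusted p = 0.0524) or with the replicate block (adjusted p = 0.0904), and Csmd1 did not pass with limma on log2 of FPKM plus 1 (adjusted p = 0.340) or plus 0.1 (adjusted p = 0.154). With a term for Y-linked transcripts, which compares KO2 alone with WT, the log2 fold changes were 1.85 for Csmd1, 0.33 for Calr and -0.40 for Colec12. Among the genes not passing, C2, which was chosen after its values were seen, stood at 1.52, 1.52 and 1.71 CPM in WT and 2.29, 2.18 and 24.6 CPM in KO (log2 fold change 2.61 ± 1.0002 (SE), adjusted p = 0.0865), a KO3 level 10.98 times the mean of KO1 and KO2. Exons of C2 overlap those of the same-strand gene Gm20547 and the opposite-strand gene Zbtb12. Reads shared with these genes cannot be told apart here.

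The levels of some members moved together over the 6 libraries, as a description in which KO3 carries much of the spread. C1ra and C1s1 had a Pearson correlation of 0.996 (log2 CPM, n = 6), C1s1 and C3 of 0.888, C1ra and Serping1 of 0.892, C1qb and C1qc of 0.903, and C3 and C4b of -0.876. The search for like genes left out the complement, regulator and cell marker lists, so the macrophage markers could not appear in it. Among the 9486 other tested genes with a mean over 10 CPM, Nfkbia (0.999), Mapkapk2 (0.997) and Litaf (0.997) were most like C3. Of these genes, 672 were over 0.9. Nfkbia, the gene of an NF-kB inhibitor, stood at 34.9, 36.9 and 36.3 CPM in WT and at 40.0, 39.7 and 169 CPM in KO. Camkk2 (0.987), Cmtm3 (0.984) and Ndufa2 (0.981) were most like Serping1, with 129 genes over 0.9. 1810032O08Rik (0.982), Aven (0.967) and Snu13 (0.966) were most like the mean of the C1q chains, with 17 genes over 0.9.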

How the data were processed

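RNA-seq of 3 WT and 3 Rnf20 KO libraries was used. Per the labels and methods, the authors prepared stranded mRNA libraries, used HISAT2 2.1.0 to align paired-end reads to GRCm38/mm10, and deposited raw counts per gene with gene lengths. The counting program, and how it treated reads shared by paralogs, are not given in the sources used here. The authors also deposited FPKM values from Cufflinks 2.1.1 for 12633 genes, beside their own log2 fold changes and FDR values and the counts a second time, which were not used. No sample column was left unassigned.

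Counts were analysed with R 4.3.3 and edgeR 4.0.16: filterByExpr at its defaults, TMM factors, and the quasi-likelihood test of KO against WT without covariates, adjusted by the Benjamini-Hochberg method over 13386 genes. A gene passed at an adjusted p under 0.05. Standard errors were obtained as the size of the log2 fold change over the square root of F. CPM and RPKM use TMM-normalized library sizes and the deposited gene lengths. Log2 CPM used a pseudocount of 2 counts. No result rests on a pooled column. Alternatives used DESeq2 1.42.0, and limma 3.58.1 on the log2 of FPKM plus 1 or 0.1. The script was tested on simulated data first.

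The named genes are the members, wider-list genes that passed or were among the 3 highest in RPKM, 5 macrophage markers, regulators that passed, and Rnf20. The 3 genes of mean CPM over 10 most correlated with the C1q mean, C3 and Serping1 were also named. They were searched outside the complement, regulator and cell marker lists. Cebpb, C2, Laptm5, Mrc1, Pdgfra, Thy1, Vim, Dcn, Col1a1, Col1a2 and Col3a1 lie outside this rule and were named after their values were seen. So were Aif1, Alb, Apoa1 and Ddx3y, for their low or absent counts. For 1 wider-list gene that passed, values are not reported here. The members and lists were chosen with earlier results of these data known. Positions came from GENCODE M21 and promoters from RefSeq. Replicate numbers are those of the labels. Same-numbered libraries did not deviate together, so the numbers were not taken as pairs.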

Additional observations from a re-analysis of the deposited data

How the results depend on the processing

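Of the 4413 genes that passed in the 6 libraries, the count was 1396 to 6510 when 1 library was left out (lowest without WT3, highest without KO3), 2875 with the replicate block and 109 with a term for Y-linked transcripts, and 3572 to 5101 under the other alternatives run. The count of members higher in KO was 0, 1 with edgeR's exact test, and 0 to 1 when 1 library was left out. The count of members lower in KO was 1. It was 0 at an adjusted p under 0.01, 0 under the thresholds of the study, and 0 to 4 when 1 library was left out. In the wider list the count higher was 3, and 4 with no filter on low counts, DESeq2 or edgeR's exact test. That count was 1 with library size only, on log2 of FPKM plus 1 or 0.1, and with the replicate block. It was 0 to 4 when 1 library was left out. The count lower was 1, 2 with library size only and 0 to 3 when 1 library was left out. Macrophage markers lower were 0, 1 with library size only, 1 on either FPKM scale, and 0 to 1 when 1 library was left out. The count of macrophage markers higher was 0 in every alternative counted. C1ra turned to -0.46 and C1s1 to -0.56 with the Y-linked term, and to -0.47 and -0.58 without KO3. Serping1 turned to 0.072 without KO1. Over the fits that leave out 1 library, C1ra ranged from -0.47 to 0.55, C1s1 from -0.58 to 0.80 and Serping1 from -0.54 to 0.072. With the Y-linked term, thus in KO2 against WT, C4b was -0.98 and C3 was 0.34. On log2 of FPKM plus 1, C4b was -0.72 and C3 was 1.58. The causes were not tested. With the replicate block, C3 was 1.66 (adjusted p = 0.250) and C4b was -1.67 (adjusted p = 0.0495); same-numbered WT and KO libraries had correlated deviations of -0.0656, 0.0366 and 0.0109, so the numbers do not pair them. No scaling moved the median log2 fold change of all genes beyond -0.060. For C1q, 78 to 174 counts of C1qa per library limit the precision, and intervals were not computed.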
